A study of Homo sapiens with 6 samples.

Results

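The genes described here encode the enzymes of heme synthesis and the carrier that supplies its glycine: SLC25A38, ALAS1, ALAS2, ALAD, UROS, UROD, CPOX, PPOX and FECH. The members were chosen by gene symbol, with the brightest probe set kept where a gene had several. Each of the 9 genes had 1 probe set, so they make up 9 of the 21448 probe sets on the array. All RNA came from the established human erythroleukaemia line K562, hybridised to 3 control-vector arrays and to 3 arrays of cells that overexpressed the microRNA miR-543 from a vector. The labels name no treatment, time or clone, and do not give the promoter of the vector or say whether replicates were separate cultures. The p-values therefore speak of the spread among these 6 samples alone, and that spread may be technical. The level of miR-543 itself was not analysed here.

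Heme is the iron-holding ring of haemoglobin and of the cytochromes. Its synthesis begins in the mitochondrion, where glycine and succinyl-CoA are joined to 5-aminolevulinate, runs through the cytosol, and returns to the mitochondrion for the last steps, where iron is inserted. The first enzyme sets the rate and has an isoenzyme for most tissues, ALAS1, and another for red cell precursors, ALAS2. K562 cells carry erythroid features and make embryonic and fetal globins.

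The microRNA in the overexpression vector is shown to identify it, with the seed, bases 2 to 8, in capitals. The mature sequence is that of RefSeq at chr14:101032033-101032054 on the plus strand (GRCh38.p14).
hsa-miR-543: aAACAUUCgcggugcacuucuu
No other mature microRNA in the RefSeq table had the seed AACAUUC.

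Promoter windows of 250 bases before the start site are shown for the first-step isoenzymes and for PPOX, because ALAS2 and PPOX were the members whose groups did not overlap and ALAS1 is the counterpart of ALAS2. Capitals mark matches on either strand to 4 motifs known from erythroid or housekeeping promoters: the GATA motif, the CACCC box, the core shared by NF-E2 and AP-1, and the NRF1 motif in its palindromic form. The letters searched were AGATAA and its variant with T in front (TGATAA) for GATA, CACCC for the box, and TGAGTCA for the core. No match of one motif overlapped a match of another. The windows are chrX:55030978-55031227 on the minus strand for ALAS2, chr3:52197833-52198082 on the plus strand for ALAS1 and chr1:161166396-161166645 on the plus strand for the downstream start site of PPOX (RefSeq, GRCh38.p14; the build behind the array values was not given in the sources used here).
ALAS2: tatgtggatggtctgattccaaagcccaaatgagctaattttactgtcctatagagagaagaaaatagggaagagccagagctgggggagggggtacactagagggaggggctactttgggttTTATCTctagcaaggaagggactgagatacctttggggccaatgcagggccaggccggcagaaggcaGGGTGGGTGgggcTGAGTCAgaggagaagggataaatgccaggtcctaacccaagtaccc
ALAS1: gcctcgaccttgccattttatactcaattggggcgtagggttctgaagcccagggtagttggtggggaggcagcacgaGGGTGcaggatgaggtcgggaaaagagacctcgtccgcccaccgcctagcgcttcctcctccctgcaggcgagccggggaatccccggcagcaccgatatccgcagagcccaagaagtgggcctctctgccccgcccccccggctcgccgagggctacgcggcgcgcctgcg
PPOX: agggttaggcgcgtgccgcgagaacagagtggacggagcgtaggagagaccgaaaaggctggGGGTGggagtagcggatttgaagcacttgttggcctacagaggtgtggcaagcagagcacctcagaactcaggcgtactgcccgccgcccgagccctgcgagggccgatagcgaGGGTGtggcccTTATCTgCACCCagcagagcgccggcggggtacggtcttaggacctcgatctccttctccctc
ALAS2 held a GATA match 127 bases before the start, CACCC matches at 60 and 56 bases that share a base, and a TGAGTCA match at 47 bases. The downstream PPOX window held a GATA match at 63 bases, with CACCC matches at 74 and 56 bases on either side of it and another at 188 bases, and the window of the upstream PPOX start site held no match to the 4 motifs. ALAS1 held a CACCC match at 172 bases and no GATA match. The table held 10 windows for 8 members, 2 each for ALAD and PPOX, and none for UROS. GATA matches were present in 3 of these 10 windows (ALAS2, CPOX and the downstream one of PPOX), where 14.6% of 35116 promoter windows of the same length hold one. CACCC matches were present in 6 of the 10 (54.7% of all windows), TGAGTCA in that of ALAS2 alone (4.2%) and the NRF1 motif in 0 (1.03%). The CPOX window, not shown, held GATA matches at 207 and 125 bases, and the groups of CPOX overlapped (log2 change 0.13). A match is a description of letters, not of binding, and a link between matches and log2 changes was not tested.

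The labelled cell type was checked against marker genes. On all 6 arrays 8 of 9 measured erythroid markers lay above the array medians, which were 5.99 to 6.01 on the log2 scale, with control means of 15.66 for the transcription factor GATA1 and 15.71 for the embryonic globin HBE1. Most markers of other types lay below those medians on every array, 4 of 5 for megakaryocytes, 3 of 5 for lymphocytes and 3 of 4 for stroma, against 2 of 5 for monocytes and 2 of 4 for epithelium. The exceptions above the medians on every array were ITGA2B, LYZ, CD3D, CD79A, COL1A2, EPCAM and KRT19. The mean of the 9 erythroid markers was 13.03 to 13.27 on the control arrays and 13.27 to 13.42 on the miR-543 arrays. Without KLF1 it was 13.81 to 14.08 and 14.02 to 14.14, so the groups overlapped in this mean. Among the markers in it, the miR-543 arrays of HBA1 and HBA2 all lay above their control arrays (log2 changes of 0.31 and 0.30). The groups of the others overlapped, with log2 changes of 0.32 (HBZ), 0.14 (EPOR), 0.12 (SLC25A37), 0.10 (HBE1), 0.01 (GATA1) and -0.08 (TFRC). The mean of the 5 megakaryocyte markers was 4.90 to 5.14 and 5.16 to 5.26. The platelet genes ITGA2B and PF4 and the T cell gene CD3D had log2 changes of 0.72, 0.41 and 0.64. Their miR-543 arrays all lay above their control arrays, as for 7.89% of all probe sets. The other megakaryocyte markers had log2 changes of 0.31 (ITGB3), -0.08 (GP9) and -0.29 (PPBP). Those of the other lymphocyte markers were 0.26 (CD79A), 0 (CD2), -0.04 (MS4A1) and -0.08 (CD3E). None of the markers in the 6 lists was called in limma (for ITGA2B, PF4 and CD3D, adjusted p = 0.235, 0.404 and 0.184).

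The signals of heme synthesis mRNAs differed little between the vectors. None of the 9 genes was called in limma at an adjusted p under 0.05 (Benjamini-Hochberg over all probe sets), where 0.569% of all probe sets were called, and 1 gene, ALAS2, had an unadjusted p under 0.05, where 10.6% of all probe sets had one and 5.40% had one with the miR-543 arrays higher. The log2 change, miR-543 vector minus control vector, was above 0 for 7 genes (77.8%, against 52.3% of all probe sets) and ran from -0.21 for ALAD to 0.40 for ALAS2. Its median was 0.09, against 0.01 over all probe sets. The 95% intervals of the 9 genes reached at most from 0.623-fold, for ALAD, to 1.66-fold, for ALAS2. A 2-fold change of signal in either direction thus lay outside each of them. For ALAD this is a limit on the signal alone, since it lay below the median on every array and detection was not called. In these bulk samples, fewer cells of a type and less RNA per cell cannot be told apart.

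**Figure D1:**
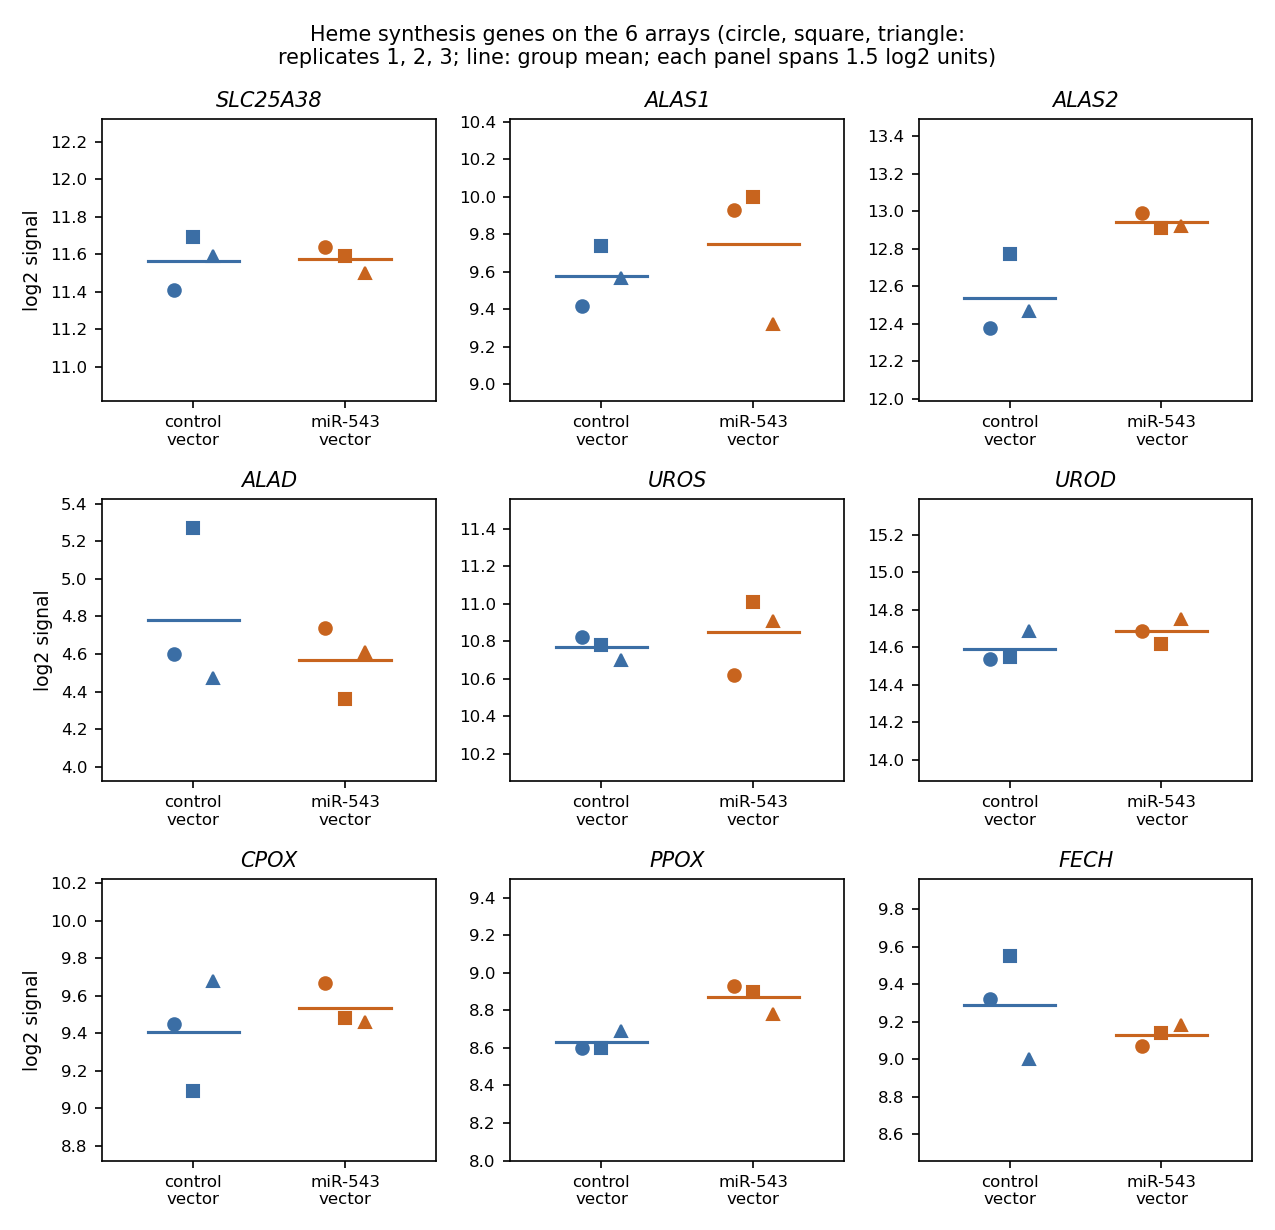
Log2 signal (vertical axis) of each heme synthesis gene on the 3 control-vector arrays (blue) and the 3 miR-543-vector arrays (orange), with the group means as lines and circles, squares and triangles for replicates 1, 2 and 3. The groups do not overlap for ALAS2 and PPOX, and they overlap for the other 7 genes.

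ALAS2, the erythroid 5-aminolevulinate synthase on chromosome X, had the largest difference of the 9. Its log2 signal was 12.38, 12.77 and 12.47 on the control arrays and 12.99, 12.91 and 12.92 on the miR-543 arrays. All 3 miR-543 arrays lay above all 3 control arrays, and control replicate 2 lay nearest to them. The means were 12.54 ± 0.20 and 12.94 ± 0.044 (SD, n = 3), a log2 change of 0.40 (SE 0.15, 95% interval 0.07 to 0.73) or 1.32-fold. In limma this gave an unadjusted p of 0.0222 and an adjusted p of 0.385, and 9.25% of all probe sets had a change at least as large in either direction. The unadjusted p was 0.088 without control replicate 1, 0.0592 without control replicate 3 and 0.0619 without miR-543 replicate 1.

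ALAS1, the synthase of most tissues, did not follow its isoenzyme on every array. The control arrays gave 9.42, 9.74 and 9.57, and the miR-543 arrays gave 9.93, 10 and 9.32. With the miR-543 vector replicates 1 and 2 lay above all control arrays and replicate 3 lay below them all. The means were 9.58 ± 0.16 and 9.75 ± 0.37 (SD, n = 3), and the log2 change was 0.17 (SE 0.19, 95% interval -0.26 to 0.61, limma adjusted p = 0.822). The change was 0.39 without miR-543 replicate 3 (unadjusted p = 0.0408, adjusted p = 0.506 in limma). It was 0.05 without miR-543 replicate 2, 0.08 without miR-543 replicate 1 and 0.09 without control replicate 1.

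The isoenzymes were compared through ALAS2 minus ALAS1 on each array, which removes whatever an array adds to both. This log2 difference was 2.96, 3.03 and 2.90 on the control arrays and 3.06, 2.91 and 3.60 on the miR-543 arrays. Replicate 3 with the miR-543 vector stood apart, and the other miR-543 arrays lay within or just above the control range. The difference changed by 0.23 (2.96 ± 0.065 to 3.19 ± 0.36, SD, n = 3; two-sided exact permutation p = 0.4, where 0.1 is the smallest possible). The change was 0.02 without miR-543 replicate 3 and 0.37 without miR-543 replicate 2 (exact permutation p = 0.7 and 0.1). With so few arrays the exact p could not fall below 0.1 in any of these comparisons. The test therefore cannot decide whether the isoenzymes responded differently, and these arrays do not show that they did. Probes differ in brightness, so the size of the difference does not rank the mRNAs.

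SLC25A38, which carries glycine into mitochondria for the first step, had the smallest change. Its log2 signal was 11.41, 11.69 and 11.59 with the control vector and 11.64, 11.59 and 11.50 with the miR-543 vector. The miR-543 arrays lay within the control range, and the log2 change was 0.01 (SE 0.14, 95% interval -0.30 to 0.32, limma adjusted p = 0.988).

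The cytosolic enzymes followed. ALAD, which joins aminolevulinate molecules to porphobilinogen, had a log2 signal of 4.6, 5.27 and 4.47 on the control arrays and 4.74, 4.36 and 4.61 on the miR-543 arrays. Control replicate 2 was the highest of the 6, and every value lay below the array medians of 5.99 to 6.01, so ALAD was the dimmest member. The log2 change was -0.21 (SE 0.21, 95% interval -0.68 to 0.26, limma adjusted p = 0.795) and was 0.04 without control replicate 2.

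UROS closes the porphyrin ring. Its log2 signal was 10.82, 10.78 and 10.70 with the control vector and 10.62, 11.01 and 10.91 with the miR-543 vector. Replicate 1 of the miR-543 arrays was the lowest of all and the remaining ones were the highest, so the groups overlapped. The log2 change was 0.08 (SE 0.15, 95% interval -0.25 to 0.41, limma adjusted p = 0.904).

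UROD, which removes carboxyl groups from the ring, was among the brightest probe sets, with a mean over the arrays at percentile 98.1 of all probe sets. The values were 14.54, 14.55 and 14.69 on the control arrays and 14.69, 14.62 and 14.75 on the miR-543 arrays. Both groups were tight (SD 0.084 and 0.065), and miR-543 replicate 1 equalled control replicate 3. The log2 change was 0.09 (SE 0.13, 95% interval -0.20 to 0.39, limma adjusted p = 0.866).

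The last enzymes act in the mitochondrion again. CPOX, which oxidises coproporphyrinogen, had a log2 signal of 9.45, 9.09 and 9.68 with the control vector and 9.67, 9.48 and 9.46 with the miR-543 vector. The control arrays spread more widely (SD 0.30) than the miR-543 arrays (SD 0.12) and enclosed them. The log2 change was 0.13 (SE 0.17, 95% interval -0.25 to 0.51, limma adjusted p = 0.854) and was -0.03 without control replicate 2, the lowest array.

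PPOX, which makes protoporphyrin, was the other gene whose groups did not overlap. Its log2 signal was 8.60, 8.60 and 8.69 on the control arrays and 8.93, 8.90 and 8.78 on the miR-543 arrays. Every miR-543 array lay above every control array, as for ALAS2. The means were 8.63 ± 0.052 and 8.87 ± 0.079 (SD, n = 3), a log2 change of 0.24 (SE 0.13, 95% interval -0.05 to 0.53) or 1.18-fold, and the limma p was 0.0996 before and 0.569 after adjustment. Its residual SD of 0.067 was small, with only 3.12% of probe sets below it, and moderation drew its error toward that of other probe sets. Groups failed to overlap for 2 of the 9 genes, both with the miR-543 arrays higher, where 15.4% of all probe sets did so in either direction and 7.89% with the miR-543 arrays higher.

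FECH, the ferrochelatase that inserts iron and itself holds an iron-sulfur cluster, had a log2 signal of 9.32, 9.55 and 9 with the control vector and 9.07, 9.14 and 9.18 with the miR-543 vector. The control arrays enclosed the miR-543 arrays, which lay close together (SD 0.056). The log2 change was -0.16 (SE 0.16, 95% interval -0.52 to 0.20, limma adjusted p = 0.796), and with ALAD it was 1 of the 2 genes below 0. The change was -0.03 without control replicate 2 and -0.31 without control replicate 3.

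**Figure D2:**
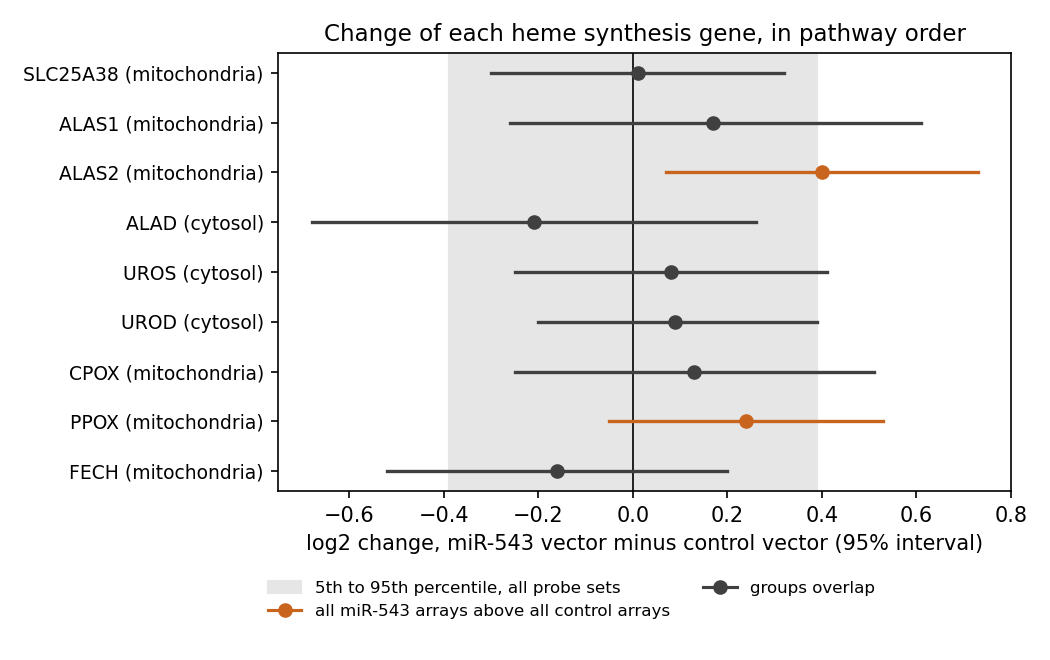
Log2 change of each heme synthesis gene, miR-543 vector minus control vector, with its 95% interval from limma (horizontal axis), in pathway order from glycine import at the top to iron insertion at the bottom; the grey band spans the 5th to 95th percentile of all probe sets, -0.39 to 0.39. Orange marks genes whose groups did not overlap, and ALAS2 at 0.40 alone lies past the band and has an interval clear of 0.

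By compartment, 5 of the 6 mitochondrial members had a log2 change above 0, with a median of 0.15, and 2 of the 3 cytosolic ones did, with a median of 0.08. Relative to the control means, the median deviation of the 9 genes was -0.05, 0.13 and -0.01 on the control arrays and 0.10, 0.07 and 0.05 on the miR-543 arrays, so control replicate 2 had a larger median deviation than any miR-543 array.

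Erythroid regulators were set beside ALAS2, a gene of the erythroid programme. KLF1, which switches on many red cell genes, had a log2 signal of 6.80, 6.87 and 6.75 with the control vector and 7.67, 7.43 and 7.31 with the miR-543 vector, a log2 change of 0.66 (SE 0.15). It was not called in limma (adjusted p = 0.106). TAL1, a partner of GATA1 in erythroid complexes, had a log2 change of 0.41 (adjusted p = 0.371), and NFE2, a factor of globin and platelet genes, had one of 0.34 (adjusted p = 0.423). For these 3 factors, which were named for their small p, the miR-543 arrays lay above all control arrays, as they did for 7.89% of all probe sets. GATA1, which binds the GATA motif, had a log2 change of 0.01 and the transferrin receptor TFRC one of -0.08, and ZFPM1, a cofactor of GATA1, had one of -0.13. Of these 8 regulators and receptors 5 lay above 0 and 0 were called. In limma 3 of the 8 had an unadjusted p under 0.05 (37.5%, against 10.6% of all probe sets), each with the miR-543 arrays higher. KLF1, TAL1 and NFE2 lay higher on the same arrays as ALAS2. So did the globin genes HBA1 and HBA2 (log2 changes of 0.31 and 0.30), the megakaryocyte genes ITGA2B and PF4 (0.72 and 0.41) and CD3D (0.64). The markers GP9, PPBP and CD3E of the same lists did not (-0.08, -0.29 and -0.08), and the groups of the globin genes HBZ and HBE1 overlapped (0.32 and 0.10). The part of KLF1, TAL1, NFE2 and these markers in the value of ALAS2 was not tested.

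Partners and carriers of the pathway had the highest median of the 6 lists. Of 12 measured genes 9 lay above 0 (median 0.12) and 0 were called. PGRMC2, a heme-binding protein that moves heme to the nucleus, had a log2 signal of 12.75, 12.72 and 12.89 with the control vector and 13.15, 13.39 and 13.17 with the miR-543 vector. PGRMC2 was the 1 gene of the 12 whose groups did not overlap, which held for 15.4% of all probe sets. Its log2 change of 0.45 (SE 0.14) had a limma adjusted p of 0.28. ABCB10, a mitochondrial transporter needed for heme formation in red cells, had a log2 change of 0.27, the kinase subunit PRKACA, whose kinase can phosphorylate ferrochelatase, one of 0.24, and the iron importer SLC25A28 one of 0.20 (adjusted p = 0.571, 0.652 and 0.791).

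Genes that control or feed the first step lay on both sides of 0. Of 15 measured genes 6 lay above 0 and 9 below (median -0.02), and 0 were called. CLPP, the protease that pairs with CLPX, had a log2 change of 0.31, and ACO1, an iron-regulatory protein that binds the ALAS2 mRNA, had one of 0.25. DLD, a subunit of the complex that makes succinyl-CoA, had one of -0.23, and the ALAS1 coactivator PPARGC1A one of 0.23 at a dim signal (control mean 4.15). Their adjusted p-values ran from 0.527 to 0.744.

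Iron-sulfur cluster assembly, which FECH depends on, was split evenly, with 6 of 12 measured genes above 0, a median of -0.03 and 0 called. The assembly factors ISCA2 and ISCA1 lay in opposite directions, with log2 changes of 0.52 and -0.32 (limma adjusted p = 0.308 and 0.471). Their groups did not overlap, and this held for 5 of the 12 genes, 3 with the miR-543 arrays higher. The same held for 15.4% of all probe sets in either direction. ISCA2 was dim, at a control mean of 3.75, below the array lower quartiles of 3.98 to 4.03. GLRX5, whose loss impairs heme synthesis in red cells, had a log2 change of 0.28 and LYRM4 one of -0.26 (adjusted p = 0.52 and 0.573).

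For heme export, binding and breakdown 7 of 12 measured genes lay above 0 (median 0.07) and 0 were called. GSTA1, a transferase that also binds heme, had a log2 change of 0.41 at a dim signal (control mean 3.63, adjusted p = 0.384). The heme scavenger HPX had one of -0.34, the exporter ABCG2 one of 0.21 and the biliverdin reductase BLVRB one of 0.21 (adjusted p = 0.615, 0.636 and 0.636). BLVRB was the bright gene of these, with 14.74, 14.74 and 14.87 on the control arrays and 14.94, 14.96 and 15.08 on the miR-543 arrays. Its groups did not overlap, and this held for 3 of the 12 genes, all with the miR-543 arrays higher. The others were GSTA1 and ABCG2, both dim, with control means of 3.63 and 3.35, below the array lower quartiles of 3.98 to 4.03. Such a higher, separate group was present for 7.89% of all probe sets.

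Of the steps that turn heme into the forms of the respiratory chain, COX10, which begins heme a synthesis, had a log2 signal of 7.92, 7.83 and 7.87 with the control vector and 7.55, 7.26 and 7.51 with the miR-543 vector. Its miR-543 arrays all lay below its control arrays. COX10 was the 1 gene of 4 measured whose groups did not overlap, which held for 15.4% of all probe sets. Its log2 change of -0.43 (SE 0.14) had a limma adjusted p of 0.307. FDX1, HCCS, which attaches heme to cytochrome c, and COX15 had log2 changes of -0.18, 0.15 and 0.02. Over the 6 lists 62 of 70 distinct genes were measured, 0 were called, and 8 had an unadjusted p under 0.05, 6 with the miR-543 arrays higher and 2 with them lower. This share of 12.9% is near the 10.6% of all probe sets. Groups did not overlap for 16 of the 62 genes, against 15.4% of all probe sets. For 12 of the 62 genes they did not overlap with the miR-543 arrays higher, against 7.89% of all probe sets.

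**Figure D3:**
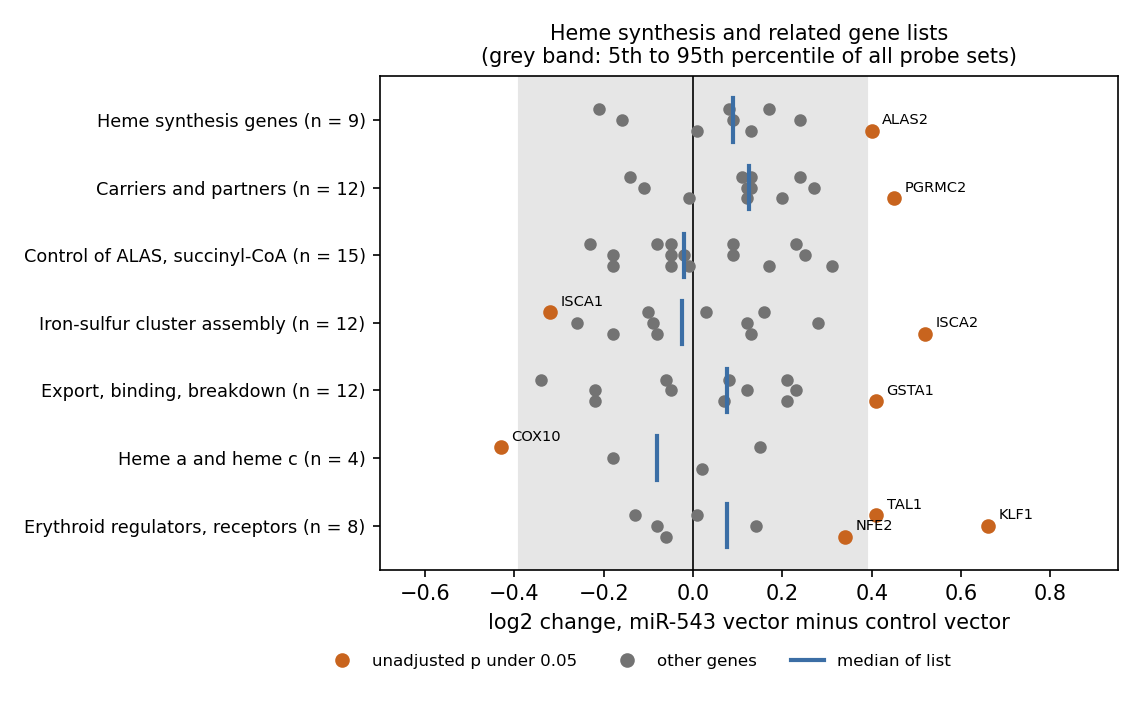
Log2 change, miR-543 vector minus control vector (horizontal axis), of each measured gene in heme synthesis and the 6 related lists, with the list median as a blue bar and orange for an unadjusted p under 0.05. The list medians lie between -0.08 and 0.12, inside the grey band from the 5th to the 95th percentile of all probe sets (-0.39 to 0.39), and none of the genes was called after adjustment.

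The genes most like the isoenzymes over the 6 arrays were found by the root mean square difference of log2 signals, after subtracting each gene's mean, among 9188 named probe sets of above-median signal. Nearest to ALAS2 were OSBPL11 (0.0368), AUP1 (0.0534) and ABRACL (0.0544), with log2 changes of 0.33, 0.32 and 0.31. Nearest to ALAS1 were ZNF317 (0.0495), COPE (0.0599) and PSKH1 (0.0691), with log2 changes of 0.10, 0.17 and 0.23. None of these 6 was called in limma (adjusted p from 0.456 to 0.897), and with 9188 candidates on 6 arrays some genes lie close to any profile.

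**Figure D4:**
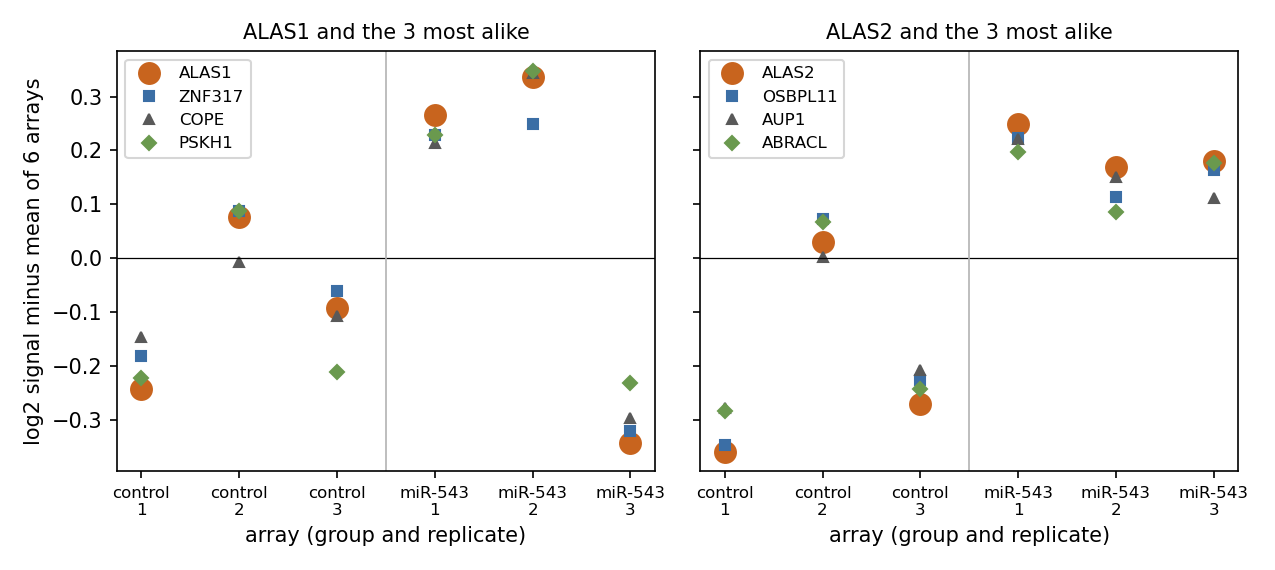
Log2 signal minus the mean of the 6 arrays (vertical axis) for ALAS1 (left) and ALAS2 (right), large orange circles, and the 3 genes nearest to each, by array. The miR-543 arrays of ALAS2 lie together above its control arrays, while ALAS1 and its nearest genes are lowest on replicate 3 of the miR-543 arrays.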

How the data were processed

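Total RNA of K562 cells was measured as biotin-labelled cDNA on 6 single-colour arrays, grouped by sample title. The authors deposited log2 signals per probe set. These values came from Transcriptome Analysis Console 4.0 with RMA (background correction, between-array normalization, probe summary), per the submitters' processing notes; the variant of RMA is not given in the sources used here. Symbols came from the platform annotation through gene identifiers (17709 of 21448 probe sets) and the RefSeq gene table. Detection was not called, and the number of arrays limits the precision.

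The vectors were compared by lmFit and eBayes of limma 3.58.1 (R 4.3.3) over all 21448 probe sets, two-sided, without filter or block, and called at a Benjamini-Hochberg adjusted p under 0.05. The fit was tested on simulated data. ALAS2 minus ALAS1 was tested by exact permutation. The 9 members were always named, with up to 4 genes of each related list by smallest unadjusted p and the 3 genes nearest to each ALAS isoenzyme. Members and lists were chosen with earlier results of these data known. Alternatives were other scalings, dim-probe filters, variance priors, array weights, a replicate block and leaving out each array.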

Additional observations from a re-analysis of the deposited data

How the results depend on the processing

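The number of heme synthesis genes called was 0 in limma under all 13 alternatives, and the median change of the members stayed between 0.05 and 0.14. Leaving out single arrays moved the members with an unadjusted p under 0.05 between 0 (without control replicates 1 or 3, or miR-543 replicate 1) and 2 (without miR-543 replicate 3), the probe sets called between 34 and 59, and the log2 changes of ALAD between -0.36 and 0.04, CPOX between -0.03 and 0.27, SLC25A38 between -0.06 and 0.08 and UROS between 0.00 and 0.19. Over all 13 alternatives ALAS1 (0.05 to 0.39), ALAS2 (0.32 to 0.52), UROD (0.06 to 0.14), PPOX (0.21 to 0.28) and FECH (-0.31 to -0.03) kept their direction. The adjusted p of ALAS2 ran from 0.139 to 0.746. With trend and robust settings 252 of all probe sets were called; the cause was not tested. ALAD was removed by the filter at percentile 50. Each member had 1 probe set, so averaging over rows was not run.

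With a replicate block 71 probe sets and 0 members were called, and ALAS2 had an adjusted p of 0.44. The labels do not say whether same-numbered arrays share more than the number. The correlations of their deviations were 0.09, -0.05 and 0.02, and 2 of 6 arrays correlated best with their own number. So few correlations cannot settle whether the arrays are paired.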
